A study of Mus musculus with 6 samples.

Results

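A set of 9 genes that mark eosinophils was followed through colonies grown from mouse bone marrow progenitors with and without Psip1. The genes, listed by name and not by a cut-off on these counts, are Prg2, Prg3, Epx, Ear1, Ear2, Ear6, Il5ra, Siglecf and Alox15. All 9 were found among the 46983 genes in the count tables, and all 9 passed the filter on low counts, which left 12292 genes for testing. The KO group is labelled Psip1-KO and the WT group wild type. The series design names the mice PsipVav/Vav and PsipFl/Fl, without saying which label each belongs to or what Vav stands for, so the controls may carry a floxed Psip1 allele. Each group has 3 libraries from C57BL/6 mice aged 8 to 11 weeks per the sample labels (8 to 10 weeks in the growth protocol). Lineage-depleted marrow cells of both groups formed colonies in methylcellulose with mSCF (stem cell factor), IL-6 and IL-3, and the colonies were collected on day 6 to 7. IL-5 is not among the factors named. The labels do not say whether a group's libraries are from different mice, so p-values measure only the spread between these libraries, which may be technical.

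Eosinophils are granulocytes that arise in the marrow under IL-3, GM-CSF and IL-5, whose receptors share the beta chain made from Csf2rb. IL-5 binds the alpha chain Il5ra, and commitment to the lineage depends on GATA1 with C/EBP factors and PU.1. Their granules are packed with very basic proteins. These are the major basic protein from Prg2 and its relative from Prg3, a haem peroxidase from Epx, and, in mice, a rapidly duplicated family of ribonucleases named Ear. Siglecf encodes a sialic acid receptor of mature mouse eosinophils that is also found on alveolar macrophages. Alox15 encodes a lipoxygenase that oxidises arachidonic acid and is made by eosinophils and some macrophages.

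Depth was 12714022, 7056614 and 15569088 gene reads in KO replicates 1, 2 and 3, against 14332364 and 10418101 in WT replicates 1 and 2. WT replicate 3 held only 27909 gene reads. In that library 1 read is worth 29.9 CPM (a read count scaled to the same total in every library by its effective library size), and a gene with 0 reads there could still lie at 89.6 CPM, the level of 3 reads. Such limits, and the Poisson and Wilson intervals given later, reflect counting error alone. The other 5 libraries are called the deep libraries, and WT replicate 3 is given in reads. Psip1 itself stood at 14.8, 17.6 and 16.3 CPM in KO replicates 1, 2 and 3 and at 89.3 and 70.0 CPM in WT replicates 1 and 2, with 3 reads in WT replicate 3, so that KO and deep WT libraries did not overlap and went with their labels (log2 fold change of KO over WT -2.32, SE 0.32, edgeR quasi-likelihood test, Benjamini-Hochberg adjusted p = 0.0599). Mitochondrial genes took 15.7% of gene reads in KO replicate 2 and 9.52% in WT replicate 3, against 1.26% to 1.84% in the other libraries.

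Ear1 and Ear2, ribonuclease genes on chromosome 14, have nearly identical sequences upstream of their RefSeq starts, while their reads were distributed differently over the libraries. GENCODE M21 gives Ear1 a short transcript, 43818765 to 43819639, which begins at the edge of the window shown, and a longer transcript, 43818913 to 43875517, that spans the window. The counts of Ear1 do not separate these transcripts, so the window is upstream of the short transcript only. Both upstream windows are shown, 250 bases each up to the RefSeq transcript start (RefSeq, GRCm38.p6), for Ear1 at chr14:43819640-43819889 on the minus strand and for Ear2 at chr14:44102404-44102653 on the plus strand. Capitals mark bases that differ from the other sequence or have no partner in their alignment.
Ear1: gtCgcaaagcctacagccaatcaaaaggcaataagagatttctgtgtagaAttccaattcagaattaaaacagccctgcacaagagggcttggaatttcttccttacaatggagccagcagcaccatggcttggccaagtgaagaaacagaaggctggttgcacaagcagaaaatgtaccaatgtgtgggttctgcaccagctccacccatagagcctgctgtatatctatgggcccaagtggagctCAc
Ear2: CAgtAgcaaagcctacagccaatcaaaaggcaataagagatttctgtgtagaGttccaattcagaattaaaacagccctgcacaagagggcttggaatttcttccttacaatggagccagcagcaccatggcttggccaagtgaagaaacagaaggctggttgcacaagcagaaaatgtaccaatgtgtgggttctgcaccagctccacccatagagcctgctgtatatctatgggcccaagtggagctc
Of the 252 columns of the alignment 246 were identical, 2 held different bases and 4 had no partner, an identity of 97.6%. The third ribonuclease gene, Ear6, was 78.2% identical to Ear1 and 77.3% to Ear2 over its own window. That window, 51853518 to 51853767, reaches past the GENCODE M21 start of Ear6 at 51853699, so part of it lies within the counted gene. The pairs in which at least 1 gene was not an Ear gene lay between 43.8% and 48.9%.

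Prg3, Il5ra and Epx, whose 2 highest deep libraries were KO replicate 3 and WT replicate 1, are shown for comparison. Their upstream windows have little in common. The windows are chr2:84987965-84988214 on the plus strand for Prg3, chr6:106749038-106749287 on the minus strand for Il5ra and chr11:87875537-87875786 on the minus strand for Epx. Capitals mark GATAA, the core recognised by GATA factors, on either strand in Prg3 and Il5ra, and the letters of a TATA box, TATAAA, in Epx.
Prg3: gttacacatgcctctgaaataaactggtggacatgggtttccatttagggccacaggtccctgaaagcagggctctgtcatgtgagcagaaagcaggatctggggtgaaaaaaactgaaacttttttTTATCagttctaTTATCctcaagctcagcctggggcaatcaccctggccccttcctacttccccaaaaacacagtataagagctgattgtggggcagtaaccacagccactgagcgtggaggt
Il5ra: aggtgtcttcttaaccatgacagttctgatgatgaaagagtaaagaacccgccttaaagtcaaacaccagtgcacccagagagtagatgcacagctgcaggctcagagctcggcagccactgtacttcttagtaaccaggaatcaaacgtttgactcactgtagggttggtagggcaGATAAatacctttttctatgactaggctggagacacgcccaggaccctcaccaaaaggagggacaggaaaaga
Epx: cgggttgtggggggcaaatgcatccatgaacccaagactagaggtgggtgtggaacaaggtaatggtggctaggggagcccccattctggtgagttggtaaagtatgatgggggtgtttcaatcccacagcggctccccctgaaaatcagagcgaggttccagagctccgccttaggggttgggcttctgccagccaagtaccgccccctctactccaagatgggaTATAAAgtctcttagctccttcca
Upstream windows were on hand for 7 of the 9 genes, and Prg2 and Alox15 were not matched. GATAA, searched on both strands, was found in 2 of these 7 windows (Prg3 and Il5ra), against 22.6% of 32851 RefSeq windows of the same length. In Prg3 it occurred at 2 places between 123 and 107 bases before the start. TTNCNNAA, a C/EBP pattern, was found in 5 of 7 windows (Prg3, Ear1, Ear2, Ear6 and Siglecf) against 36.8% of all. The windows of the Ear genes resemble each other, so their matches do not count as separate finds. GAGGAAG, a PU.1 core, was found in 1 (Siglecf) against 10.6%, and TATAAA in 1 (Epx) against 12.4%. Each was searched on both strands. The 4 patterns do not overlap in these windows. A match describes letters in a window and is not evidence of a bound site.

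On a scale corrected for gene length, CPM per kilobase of exon, Prg2 was the most abundant of the 9 transcripts and Il5ra the least. Prg2 averaged 760.8 ± 453.2 CPM per kilobase over the deep libraries (SD, n = 5), and it was above the next gene, Ear6, in 5 of 5. Ear6 averaged 123.0 ± 40.0, Epx 87.7 ± 66.7, Ear2 82.4 ± 46.8 and Prg3 55.4 ± 38.0. The order within this middle group was not fixed, since Epx was above Ear2 in 2 of 5 libraries and Ear2 above Prg3 in 3 of 5. Alox15 averaged 9.21 ± 4.83 and Siglecf 7.83 ± 2.18 CPM per kilobase, while Ear1 averaged 11.3 and ran from 1.34 to 27.7, and these 3 ranges overlapped. Il5ra was at 1.68 ± 1.68 and lay below Siglecf in all 5 deep libraries. Prg2 alone gave 39.5% to 60.6% of the reads of the 9 genes in each deep library.

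The deep libraries of KO and WT overlapped in 8 of the 9 genes, while 8.66% of all genes tested did not overlap. For the summed reads, high and low libraries were found in both groups. The 9 genes together took 0.0527%, 0.0941% and 0.181% of gene reads in KO replicates 1, 2 and 3, against 0.170% and 0.0612% in WT replicates 1 and 2. KO replicate 3 and WT replicate 1 were thus the high libraries, and KO replicate 1 and WT replicate 2 the low ones. KO replicate 3 and WT replicate 1 were the 2 highest deep libraries in 5 of the 9 genes (55.6%), and also in 29.3% of all genes tested. WT replicate 3 held 8 reads of these genes, a share of 0.0287% with a 95% Wilson interval of 0.0145% to 0.0566%, which lies below the share of both deep WT libraries and reaches that of KO replicate 1. In bulk RNA fewer eosinophils, less of these RNAs per cell, and a share made by other cells cannot be told apart.

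**Figure D1:**
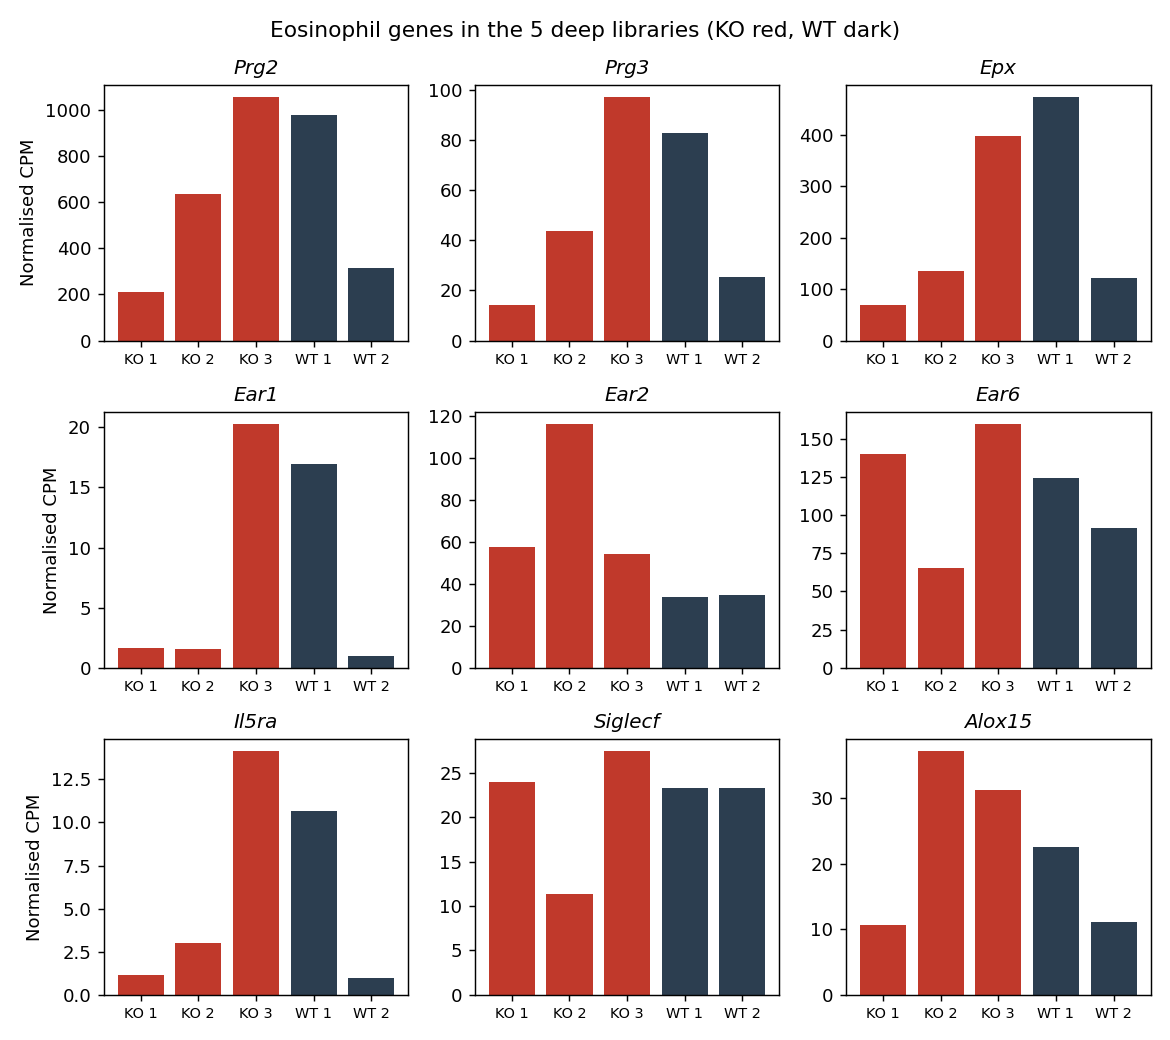
Normalised CPM (y axis, linear, from 0) of each of the 9 genes in the deep libraries, KO replicates 1 to 3 in red and WT replicates 1 and 2 in dark blue; each bar is 1 library. Prg2 is high in KO replicate 3 and WT replicate 1 (1054 and 975.6 CPM) and low in KO replicate 1 and WT replicate 2 (208.1 and 314.0 CPM), while Ear2 is highest in KO replicate 2.

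Among the granule proteins, Prg2 (ENSMUSG00000027073.5, plus strand of chromosome 2, 84980461 to 84983632, GRCm38) stood at 208.1, 636.3 and 1054 CPM in KO replicates 1, 2 and 3 and at 975.6 and 314.0 CPM in WT replicates 1 and 2. The deep libraries of the genotypes overlapped, and the spread within KO was 5.07-fold. WT replicate 3 held 3 Prg2 reads (exact Poisson 95% interval 0.619 to 8.77), where the mean of the KO libraries would give 21.2 reads and that of the deep WT libraries 21.6. Prg3, which encodes the second major basic protein and begins 4.58 kb beyond the end of Prg2, stood at 14.0, 43.7 and 97.1 CPM in KO replicates 1, 2 and 3 and at 82.9 and 25.4 CPM in WT replicates 1 and 2. It kept nearly the same proportion to Prg2, with 6.73, 6.86 and 9.21 Prg3 reads per 100 Prg2 reads in the KO libraries and 8.50 and 8.08 in the deep WT libraries.

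Epx, the eosinophil peroxidase that makes hypobromous acid (minus strand of chromosome 11, 87864000 to 87875536), stood at 69.8, 136.2 and 398.8 CPM in KO replicates 1, 2 and 3 and at 473.7 and 122.0 CPM in WT replicates 1 and 2. It had the same high and low libraries as Prg2, but in KO replicate 2 it was lower relative to Prg2, with 21.4 Epx reads per 100 Prg2 reads against 33.5 and 37.8 in the other KO libraries and 48.5 and 38.9 in WT replicates 1 and 2. WT replicate 3 held 3 Epx reads. Mpo, the related peroxidase of neutrophil granules, lies 59.6 kb from Epx and was highest in the low libraries of Epx. Its values were 2774, 843.0 and 558.6 CPM in KO replicates 1, 2 and 3, against 720.0 and 3036 CPM in WT replicates 1 and 2.

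The 3 ribonuclease genes each had a pattern of their own. Ear1 (minus strand of chromosome 14, 43818765 to 43875517) was near absent in 3 of the 5 deep libraries. It had 21, 10 and 307 reads in KO replicates 1, 2 and 3 and 233 and 10 reads in WT replicates 1 and 2, which is 1.65, 1.58 and 20.3 CPM in KO and 16.9 and 0.979 CPM in WT. The highest library was 20.7 times the lowest, the widest spread of the 9 genes, and in KO and in WT alike 1 library stood above the others.

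Ear2 (plus strand of chromosome 14, 44102654 to 44103534) was spread quite otherwise. It stood at 57.6, 116.1 and 54.1 CPM in KO replicates 1, 2 and 3 and at 33.6 and 34.7 CPM in WT replicates 1 and 2. It was the only one of the 9 genes whose KO libraries did not overlap the deep WT libraries, a state shown by 8.66% of the genes tested, 4.79% with KO higher and 3.87% with KO lower. With the 2 reads of WT replicate 3, worth 59.7 CPM with an exact Poisson interval of 7.24 to 215.8 CPM, the groups overlapped. There were 2.87, 1.36 and 37.4 Ear1 reads per 100 Ear2 reads in KO replicates 1, 2 and 3, against 50.3 and 2.82 in WT replicates 1 and 2. The ratio of the gene counts thus lay between 1.36 and 50.3 per 100 over the deep libraries. Since reads of the short and the long Ear1 transcript are counted together, the ratio cannot be assigned to the printed window of Ear1.

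Counts of Ear1 and Ear2 are uncertain, because only uniquely mapped reads were counted and the genes resemble each other. Of all stretches of 50 bases in GENCODE M21 transcripts of Ear1, 57.4% also occur in transcripts of other genes, among them Ear2, Ear10 and the pseudogene Ear-ps9. For Ear2 the share is 41.5%. Ear6 is nearly free of this, with 0.954%, and in the other 6 genes the share is at most 0.899%. The sources used here do not give the read length, so these shares describe the sequences and not the loss of reads. Ear10 was not tested and had 0, 0 and 26 reads in KO replicates 1, 2 and 3 and 13 and 0 in WT replicates 1 and 2, so its reads lay in the libraries in which Ear1 was high.

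Ear6 (plus strand of chromosome 14, 51853699 to 51854643, some 7750 kb from Ear2) was the steadiest of the ribonucleases. It stood at 140.2, 65.2 and 159.5 CPM in KO replicates 1, 2 and 3 and at 124.5 and 91.8 CPM in WT replicates 1 and 2, a 2.45-fold spread with the lowest value in KO replicate 2. Its reads went with those of Siglecf and not with those of the other Ear genes.

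Among the receptors, Il5ra (minus strand of chromosome 6, 106710357 to 106749037) had 15, 19 and 214 reads in KO replicates 1, 2 and 3 and 147 and 10 reads in WT replicates 1 and 2. That is 1.18, 3.01 and 14.1 CPM in KO and 10.7 and 0.979 CPM in WT, so that the receptor of IL-5 was clearly read only in KO replicate 3 and WT replicate 1. It varied 14.4-fold over the deep libraries, more than the granule genes Prg2 (5.07-fold), Prg3 (6.94-fold) and Epx (6.79-fold).

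Siglecf (plus strand of chromosome 7, 43351341 to 43359531) had the smallest spread of the 9 genes, 2.40-fold, against a median of 1.94-fold in all genes tested. It stood at 24.0, 11.4 and 27.4 CPM in KO replicates 1, 2 and 3 and at 23.2 and 23.3 CPM in WT replicates 1 and 2, with a single low library, KO replicate 2. The number of Siglecf reads per 100 Ear6 reads was 17.1, 17.5 and 17.2 in KO replicates 1, 2 and 3 and 18.7 and 25.4 in WT replicates 1 and 2. Alox15 (minus strand of chromosome 11, 70344152 to 70352031) stood at 10.7, 37.2 and 31.3 CPM in KO replicates 1, 2 and 3 and at 22.6 and 11.2 CPM in WT replicates 1 and 2. It shared the low libraries of Prg2, but was highest in KO replicate 2.

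**Figure D2:**
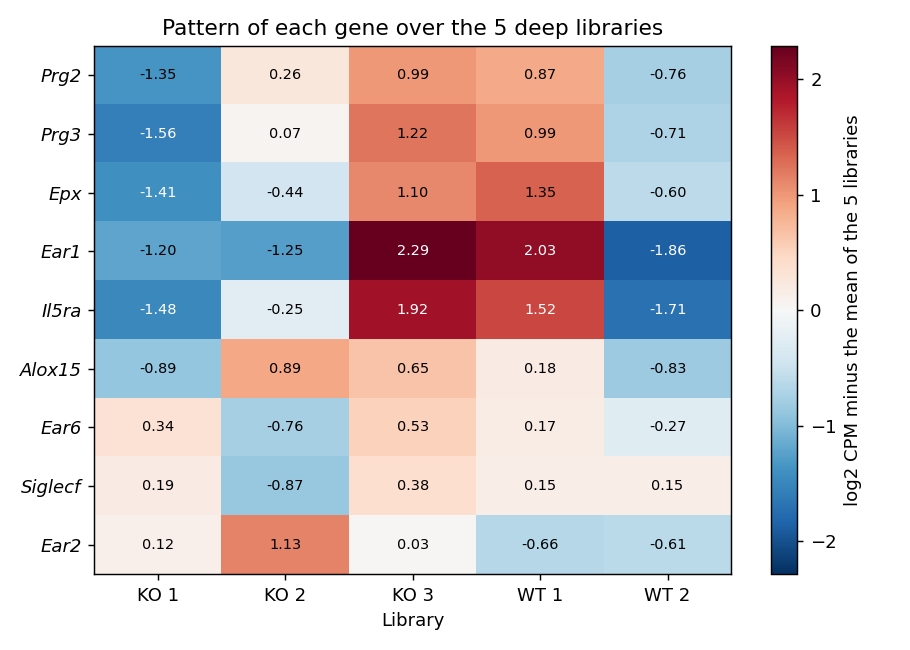
Log2 CPM of each gene minus its mean over the deep libraries (colour and printed value), with genes in rows and libraries in columns, KO left of WT. The upper 5 rows are positive in KO replicate 3 and WT replicate 1 and negative in KO replicate 1 and WT replicate 2, whereas Ear6, Siglecf and Ear2 do not follow them.

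The likeness of the patterns was measured as the root mean square difference of log2 CPM, centred on the mean of the deep libraries. It was smallest for Prg2 with Prg3 (0.17 log2 units over 5 libraries), followed by Ear6 with Siglecf (0.22) and Prg3 with Epx (0.30), and largest for Ear1 with Ear2 (2.06). Among the 9 genes, Ear1 was closest to Il5ra (0.55). These values describe 5 libraries that also differ in depth. Beyond the 9 genes, those closest to Prg2 were Il1b (0.12), Ccdc112 (0.13), Rtp4 (0.15) and Nlrp3 (0.20). Those closest to Epx were Pde4b (0.17), Sod2 (0.23), Cd14 (0.23), Hs6st2 (0.24) and Rrad (0.25). Il1b, which encodes the cytokine interleukin-1 beta, stood at 10.7, 29.7 and 50.1 CPM in KO replicates 1, 2 and 3 and at 57.7 and 15.8 CPM in WT replicates 1 and 2.

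Seen from the libraries, KO replicate 3 and WT replicate 1 differed by 0.37 log2 units (root mean square over the 9 genes), and KO replicate 1 and WT replicate 2 by 0.59. Libraries of 1 genotype lay farther apart than these, with 2.25 between KO replicates 1 and 3 and 1.70 between KO replicates 2 and 3. The values were 1.26 between KO replicates 1 and 2, and 2.01 between WT replicates 1 and 2. The remaining pairs of 1 KO and 1 WT library lay in a like range, from 1.13 (KO replicate 2 and WT replicate 2) to 2.20 (KO replicate 3 and WT replicate 2). KO replicate 3 with WT replicate 1 and KO replicate 1 with WT replicate 2 were also the closest over the 10177 tested genes of at least 5 CPM. They lay at 0.34 and 0.39 there, while libraries of 1 genotype differed by 0.64 to 0.91 and the remaining mixed pairs by 0.75 to 0.89.

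The spread was wide beside that of other genes. Over the deep libraries the highest value was more than 3 times the lowest in 7 of the 9 genes, against 21.1% of all 12292 genes tested, and more than 6 times in 4 of 9, against 6.06%. The median spread was 5.07-fold in the 9 genes and 1.94-fold in all genes tested. A spread as large as that of Ear1 or Il5ra was found in 0.432% and 0.698% of the genes of at least 5 CPM, and one as large as that of Siglecf or Ear6 in 24.4% and 23.3%.

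**Figure D3:**
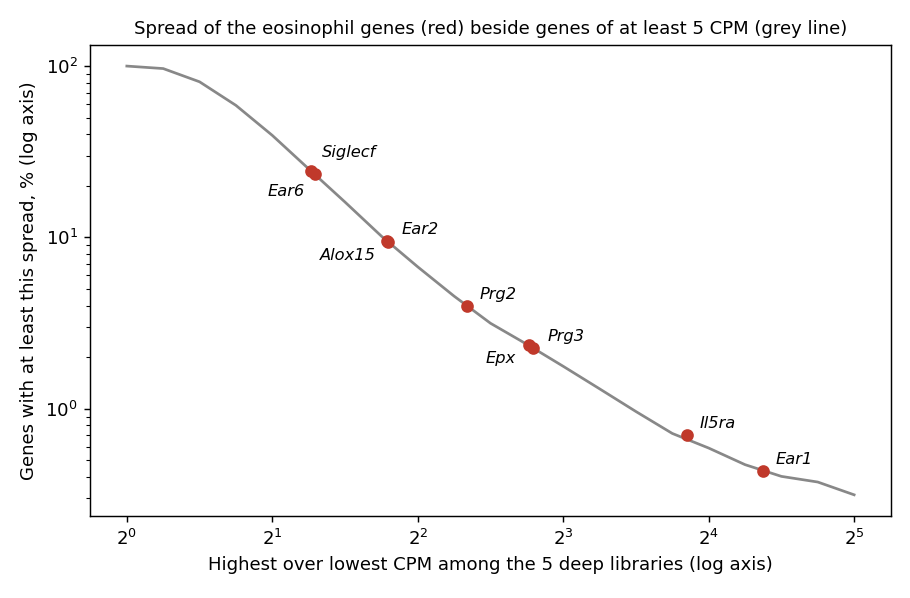
Share of the 10177 tested genes of at least 5 CPM (y axis, percent, log axis) whose highest CPM over lowest CPM among the deep libraries reaches the value on the x axis (log axis), as a grey line, with the 9 eosinophil genes as red points. Ear1 and Il5ra lie at 20.7-fold and 14.4-fold, at the far right, and Siglecf and Ear6 at 2.40-fold and 2.45-fold.

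Markers of other blood cells also differed between the libraries, but not all in the pattern of the eosinophil genes. Their part in the spread of the 9 genes was not tested. The sums and zeros given are those of the deep libraries. Primary neutrophil granule genes (8 of 9 listed found, 7 tested) summed to 7823, 3059 and 2426 CPM in KO replicates 1, 2 and 3 and to 2863 and 10138 CPM in WT replicates 1 and 2, high where the eosinophil genes were low, except that KO replicate 2 was also low. Secondary granule genes (8 of 8) ran alike, from 12756 to 36945 CPM in KO and from 18007 to 43802 CPM in the deep WT libraries. Mast cell and basophil genes (14 of 14) summed to 3353 to 9683 CPM in KO and 5124 to 6446 CPM in the deep WT libraries, with the highest sum in KO replicate 2. Monocyte and macrophage genes (12 of 12) summed to 1698 to 2357 CPM in KO and 1763 to 2213 CPM in WT, highest in KO replicate 3 and WT replicate 1. Dendritic cell genes (9 of 9) summed to 423.4 to 742.4 CPM in KO and 342.5 to 462.4 CPM in WT, highest in KO replicate 2. Megakaryocyte genes (7 of 7) summed to 597.4 to 1059 CPM in KO and 587.0 to 807.0 CPM in WT, and erythroid genes (10 of 10) to 22.4 to 157.9 CPM and 49.7 to 168.0 CPM. Stromal and endothelial genes (8 of 8) summed to 139.1 to 192.4 CPM in KO and 141.4 to 253.3 CPM in the deep WT libraries, with Col3a1 and Cxcl12 at 0 there, while WT replicate 3 held 3 reads of Col3a1. B cell genes (7 of 7) summed to at most 5.35 CPM in KO and 9.40 CPM in the deep WT libraries with Ms4a1 at 0. T and NK cell genes (8 of 8) summed to at most 2.97 CPM and 3.99 CPM with Cd3e, Cd3g and Cd8a at 0.

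Between the genotypes, none of the 9 genes passed the threshold, in either direction. The test was edgeR's quasi-likelihood test over all 6 libraries with Benjamini-Hochberg adjustment over the 12292 genes and a threshold of 0.05, by which 0% of all genes tested were called. At an unadjusted p under 0.05 there was 1 of the 9 genes (Ear2), against 178 of all genes tested, or 1.45% (1.24% with KO higher and 0.212% with KO lower). DESeq2 gave a p for 8 of the 9 genes, all but Ear1. It called 0 of them, with 0 under an unadjusted 0.05, against 1 called and 38 under 0.05 of 22213 genes. By limma-voom 0 of 9 were called, with 1 under an unadjusted 0.05, against 0 called and 109 under 0.05 of 12292 genes. The median log2 fold change of KO over WT was 0.11 in the 9 genes, of which 6 were positive and 3 negative, and 0.01 in all genes tested, of which 52.0% were positive. Without WT replicate 3, the median was -0.03 in the 9 genes, with 4 positive and 5 negative, and -0.03 in all genes tested, with 45.9% positive.

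Ear2 had the lowest p of the 9 genes. Its KO libraries averaged 75.9 ± 34.8 CPM (SD, n = 3), against 34.1 CPM as the mean of the deep WT libraries. The log2 fold change was 1.10 (SE 0.41), or 2.14-fold with a 95% interval of 1.15 to 3.98, with an unadjusted p = 0.0210 and an adjusted p = 1.00 by edgeR. An exact two-sided permutation test over the 6 libraries gave p = 0.3, and over the 5 deep libraries p = 0.2, the smallest that 3 against 2 can give (3 against 3 cannot go below 0.1). Without KO replicate 2, the library rich in mitochondrial reads, the log2 fold change of Ear2 was 0.65 with an unadjusted p = 0.129 by edgeR. Alox15 followed at 0.69 (SE 0.54), with 26.4 ± 13.9 CPM in KO (SD, n = 3) and a mean of 16.9 CPM in the deep WT libraries.

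The intervals of the other 8 genes include no difference. The fold of KO over WT was 1.26 for Prg2 (95% interval 0.442 to 3.57), 1.02 for Prg3 (0.352 to 2.98) and 0.789 for Epx (0.277 to 2.24). It was 0.910 for Ear1 (0.133 to 6.21), 1.27 for Ear6 (0.603 to 2.69), 1.08 for Il5ra (0.233 to 4.98) and 0.945 for Siglecf (0.482 to 1.85). For Alox15 it was 1.61 (0.707 to 3.66). For Prg2, Prg3, Epx, Ear1 and Il5ra a 2-fold difference in either direction lies inside the interval. The intervals of Ear6 and Alox15 end at 0.603 and 0.707 on the lower side and that of Siglecf at 1.85 on the higher side.

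The sign of the difference hung on single libraries in 6 of the 9 genes. Prg2 had a log2 fold change of 0.33 with all libraries, -0.23 without KO replicate 3 and -0.03 without WT replicate 3. Prg3, at 0.03 with all libraries, was at -0.79 without KO replicate 3, -0.43 without WT replicate 2 and -0.07 without WT replicate 3. Epx, at -0.34, was at 0.87 without WT replicate 1 and 0.09 without KO replicate 1. Ear1, at -0.14, was at 3.08 without WT replicate 1, 0.35 without KO replicate 1 and 0.32 without KO replicate 2. Il5ra, at 0.11, was at -1.47 without KO replicate 3 and -0.68 without WT replicate 2. Siglecf, at -0.08, was at 0.21 without KO replicate 2 and 0.01 without WT replicate 1. Ear2, Ear6 and Alox15 were positive in every fit that left out 1 library.

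**Figure D4:**
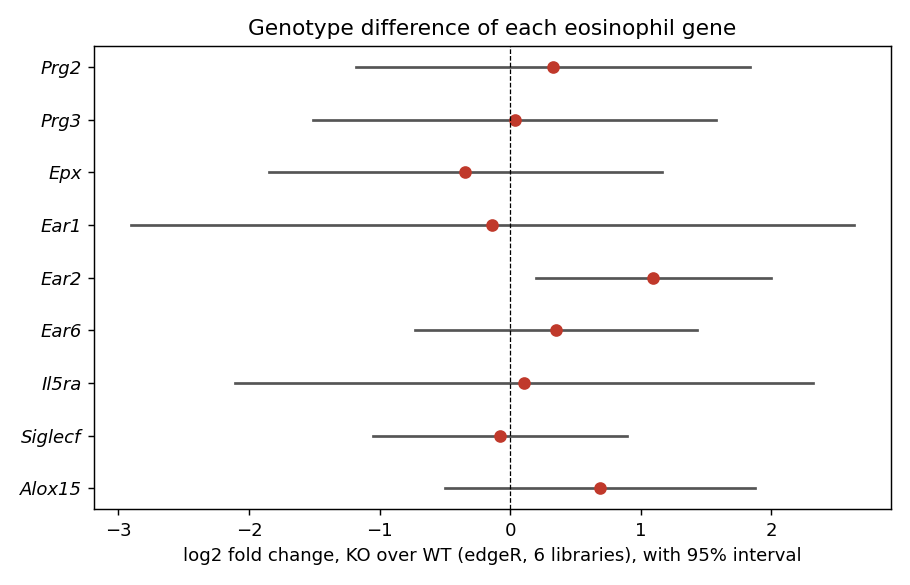
Log2 fold change of KO over WT (x axis) of each of the 9 genes from the edgeR fit of all 6 libraries, as points with 95% intervals. Ear2 is at 1.10 and its unadjusted interval lies above 0, whereas the intervals of the other 8 genes include 0.

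The other genes of the families and of the lineage gave the same count. Of 78 listed, 71 were found in the tables and 48 were tested. By edgeR 0 were higher and 0 lower in KO, beside 0% called of all genes tested. Under an unadjusted p of 0.05 by edgeR there were 0, beside 1.45% of all genes tested. DESeq2 called 0 of 63, beside 1 of 22213 genes, and limma-voom 0 of 48, beside 0 of 12292. The median log2 fold change of the 48 by edgeR was 0.11, with 33 positive (68.8%) and 15 negative values, beside 52.0% positive in all genes tested. Without WT replicate 3, there were 26 positive (54.2%) and 22 negative values, beside 45.9% positive in all genes tested, and the median was 0.08.

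Among the other ribonucleases Rnase4 and Rnase6 had the most reads, with log2 fold changes of 0.12 (SE 0.37) and -0.34 (SE 0.53). Of the other haem peroxidases Mpo was at -0.41 (SE 0.66), while Lpo had 0 reads in the deep libraries. Among the leukotriene enzymes, Alox5ap, which presents arachidonic acid to the 5-lipoxygenase, stood at 706.8, 721.5 and 562.0 CPM in KO replicates 1, 2 and 3 and at 581.3 and 681.9 CPM in WT replicates 1 and 2. Lta4h, which makes leukotriene B4, was at -0.08 (SE 0.48). Of the other Siglecs, Cd33 was at 0.13 (SE 0.35) and Siglece at -0.28 (SE 0.38).

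Of the 14 tested receptor genes 13 had values above 0 (median log2 fold change 0.31), beside 52.0% of all genes tested, and 0 were called. Without WT replicate 3, 10 of the 14 were above 0 (median 0.17), beside 45.9% of all genes tested. Csf2rb, the beta chain that signals for the IL-3, GM-CSF and IL-5 receptors, stood at 1171, 2042 and 1853 CPM in KO replicates 1, 2 and 3 and at 2023 and 1018 CPM in WT replicates 1 and 2 (log2 fold change 0.59, SE 0.62, and 0.15 without the 6 reads of WT replicate 3). Its low libraries were those of Prg2. Itgb2, the beta chain of leukocyte integrins, was at 0.36 (SE 0.55), a value that rests on 7 reads in WT replicate 3, since it was at -0.04 without that library. Ccr3, the eotaxin receptor that marks mature eosinophils, had 2, 3 and 5 reads in KO replicates 1, 2 and 3 and 10 and 2 in WT replicates 1 and 2, and Ptgdr2, a prostaglandin D2 receptor, had 0, 1 and 3 reads and 1 and 0 reads in the same libraries. Both were named after their values were seen, as the only 2 of the 16 receptor genes found that had too few reads to be tested.

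The 18 lineage regulators were all tested, 9 with a positive and 9 with a negative value and a median of 0.00. Gata2, a factor of progenitors, mast cells and eosinophils, stood at 263.8, 896.8 and 210.5 CPM in KO replicates 1, 2 and 3 and at 333.2 and 371.1 CPM in WT replicates 1 and 2 (log2 fold change 0.29, SE 0.53), highest in KO replicate 2 as Ear2 was. Spi1, which encodes PU.1, was at 0.01 (SE 0.40). KO replicate 3 and WT replicate 1, the high libraries of Prg2, were the highest in 3 of the 18 regulators, against 29.3% of all genes tested. Without WT replicate 3, 6 of the 18 regulators were positive and 12 negative, with a median of -0.12. Of all genes tested, 45.9% were positive there.

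Of the ligands that feed or attract eosinophils, Ccl24, which encodes eotaxin-2, was the only one with enough reads to be tested. It stood at 15.3, 38.1 and 1.06 CPM in KO replicates 1, 2 and 3 and at 0.653 and 182.0 CPM in WT replicates 1 and 2, with 4 reads in WT replicate 3. It was thus lowest in KO replicate 3 and WT replicate 1, the libraries in which Prg2, Epx and Il5ra were highest, and spanned 278.7-fold (log2 fold change -2.40, SE 1.96). Csf2, which encodes GM-CSF, had 9, 14 and 9 reads in KO replicates 1, 2 and 3 and 1 and 11 in WT replicates 1 and 2. Il5, named after its values were seen, had at most 2 reads in any library.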

How the data were processed

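Libraries were prepared with a kit that keeps strand (TruSeq Stranded mRNA), per the labels' protocols. The deposited files hold raw read counts per gene in the layout of STAR's gene counter. Per the submitters' processing notes, GRCm38, STAR 2.5.1b and DESeq2 were used; the sources used here do not give the annotation release. Counts on the strand opposite to the read (column 4) were used, which held 95.6% to 97.5% of stranded gene reads. The 4 rows that name no gene held 25.6% to 47.8% of reads and were left out. Both runs of WT replicate 3 were summed. Multimapping reads are not in the counts.

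Identifiers were matched to symbols and coordinates of GENCODE M21 (GRCm38) for 46488 of 46983 genes. Counts were filtered with filterByExpr, scaled by TMM and tested with edgeR 4.0.16 (glmQLFit, robust, then glmQLFTest) with genotype as the only term. The standard error is the log2 fold change over the root of the F statistic. Intervals are from the t distribution at the total degrees of freedom of the fit, residual plus prior. CPM use the effective library size. Pattern likeness used a prior count of 2. The test was tested on simulated counts. Alternatives covered scaling, filter, strand, DESeq2 1.42.0, limma 3.58.1 (voom), the first run of WT replicate 3, the replicate block, each library left out, and a threshold of 0.1. DESeq2 without WT replicate 3 was added after the data were seen.

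The 9 genes and all lists were chosen with earlier results of these data known. Named beside them are, per related list, the 2 genes of highest mean CPM and any called gene, and the 5 genes of at least 1 CPM closest in pattern to Prg2 and to Epx, clone and predicted names left out.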

Additional observations from a re-analysis of the deposited data

How the results depend on the processing

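None of the 9 genes and none of the related genes was called under any of the 16 alternatives. Over all genes edgeR called 0 with all libraries, 2 scaled by library size only, 9 without a filter, 4 at a threshold of 0.1 and 0 to 5 when 1 library was left out. DESeq2 called 1, and 12 without WT replicate 3. With the replicate number as a block edgeR called 13. Libraries of the same number did not deviate together from their group means (correlations of -0.29, -0.03 and -0.15 over 12292 genes). The WT mean includes the shallow WT replicate 3, so these values cannot decide whether the numbers mark a pairing.

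When 1 library was left out, log2 fold changes ran from -0.23 to 1.45 for Prg2, -0.79 to 1.18 for Prg3, -1.30 to 0.87 for Epx, -2.41 to 3.08 for Ear1, -1.47 to 2.72 for Il5ra and -0.30 to 0.21 for Siglecf. Signs also turned for Prg2 by DESeq2 without WT replicate 3 (-0.045) and for Prg3 there (-0.084), by limma-voom (-0.24) and with the replicate block (-0.31). They turned for Il5ra with the replicate block (-0.59), for Ear1 by limma-voom (0.135) and for Siglecf by DESeq2 (0.020). The cause was not tested. Over all 16 alternatives Ear2 stayed between 0.65 and 1.32, Ear6 between 0.12 and 0.71 and Alox15 between 0.33 and 1.35, each with an adjusted p of at least 0.836. The median of all genes was -0.32 by DESeq2 and 0.13 by edgeR without WT replicate 1, and at most 0.1 from 0 otherwise. The 27909 reads of WT replicate 3 limit every value: 7 of the 9 genes would be expected at under 5 reads there at their KO mean.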

Other observations

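Some of the genes near Ear1 and Il5ra in pattern are given here, chosen after their values were seen. Adgre4, an adhesion receptor gene of macrophages, was the closest to Ear1 (0.34 log2 units) and stood at 0.157, 0.316 and 6.73 CPM in KO replicates 1, 2 and 3 and at 5.59 and 0.0979 CPM in WT replicates 1 and 2. Il12rb2, a chain of the interleukin-12 receptor, was the closest to Il5ra (0.16) and stood at 2.99, 5.54 and 27.6 CPM in KO replicates 1, 2 and 3 and at 21.3 and 2.55 CPM in WT replicates 1 and 2. Cd83, a maturation marker of dendritic cells, was at 1.02, 3.48 and 9.57 CPM in KO and at 6.75 and 0.783 CPM in WT (0.30 from Il5ra). Zc3h12c was among the 5 closest to both Ear1 (0.51) and Il5ra (0.31), at a higher level, with 9.44, 14.7 and 58.3 CPM in KO replicates 1, 2 and 3 and 68.7 and 4.99 CPM in WT replicates 1 and 2. The genes closest to Siglecf were Ints10, a subunit of the Integrator complex, and Btbd9 (0.04 each). Ints10 stood at 29.7, 13.9 and 34.3 CPM in KO replicates 1, 2 and 3 and at 28.6 and 30.8 CPM in WT replicates 1 and 2. Ear6 was closest to Oser1 (0.07), which lay nearer to it than Siglecf did (0.22). Hrh4, the histamine receptor that eosinophils use in chemotaxis, had 27, 22 and 96 reads in KO replicates 1, 2 and 3 and 128 and 12 in WT replicates 1 and 2, so that it was most read in the same high libraries as Prg2 and Il5ra.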
